A study of Mus musculus with 54 samples.

Results

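The loss of Rxrg was examined in iILC2 of the mouse small intestine by setting 4 Rxrg KO libraries against 4 CTRL libraries. All 10176 genes listed in the deposited table of the genotype experiment were members of the comparison. That table holds 16 libraries, among the 54 samples of the series, and the other 8 are nILC2 of the same genotypes. The KO libraries came from Rxrg-/- mice and the CTRL libraries from Rxrg+/+ mice, which the genotype label gives as WT. Mice were C57BL/6, aged 8 to 12 weeks, and each library is labelled as pooled male and female. All 16 libraries, iILC2 and nILC2 alike, carry the treatment label IL25 and a treatment time of 48 hours. The labels spell out neither the prefix i nor n, and they do not give the deleted exons or say whether the deletion was present in every tissue. The deposited table abbreviates the KO as cKO, often used for a conditional knockout, whereas the series text gives Rxrg-/-, so which kind of deletion these mice carried is not settled here. In the field the prefixes commonly stand for inflammatory and natural. Messenger RNA was sequenced with Smart-seq2, which copies whole transcripts and needs few cells. Values are TPM, the length-corrected share of a gene among all transcripts of a library. Depth cannot be read from TPM and is unknown here. The labels do not say that the 4 libraries of a group came from separate mice, so p-values measure the spread between libraries, which may be technical in part.

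Group 2 innate lymphoid cells (ILC2s) are tissue-resident lymphocytes without antigen receptors that release the type 2 cytokines IL-5 and IL-13 when epithelial cells, tuft cells among them, release IL-25, IL-33 or TSLP. Inflammatory ILC2s are the population elicited by IL-25; in mice they carry high KLRG1 and little of the IL-33 receptor ST2, encoded by Il1rl1. Retinoid X receptors (RXRs) are ligand-activated nuclear receptors that bind DNA as partners of other receptors, such as the retinoic acid receptors, the liver X receptors (LXRs), the vitamin D receptor and PPARs. Rxrg encodes RXR gamma, and Rxra and Rxrb encode RXR alpha and RXR beta.

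Rxrg was lower in KO than in CTRL iILC2, from a level that was already low in CTRL iILC2. Rxrg had 0.26, 0.48, 0 and 0.38 TPM in KO iILC2, against 1.72, 1.83, 1.26 and 1.68 TPM in CTRL iILC2. All 4 KO libraries lay below all 4 CTRL libraries. Rxrg averaged 0.280 ± 0.207 TPM in KO iILC2 and 1.62 ± 0.250 TPM in CTRL iILC2 (SD, n = 4 each), so that 17.3% of the CTRL level was listed in KO. Since the kind of deletion is not settled, what this remainder stands for cannot be told apart. The difference of -1.04 on the log2(TPM + 1) scale had a two-sided exact permutation p of 0.0286, the smallest that 4 against 4 libraries can give. The same gene had 2.58, 1.76, 1.27 and 3.12 TPM in KO nILC2, against 12.3, 17.4, 12.2 and 18.4 TPM in CTRL nILC2. CTRL iILC2 thus stood 9.29-fold below CTRL nILC2 in Rxrg. The KO nILC2 libraries overlapped the CTRL iILC2 libraries, with a mean 1.35 times as high and an exact permutation p of 0.257. In CTRL iILC2, 9.16% of the listed genes had a lower mean than Rxrg, whereas in CTRL nILC2 48.0% did. In bulk libraries such as these, fewer cells that express a gene and less RNA per cell cannot be told apart.

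Rxra and Rxrb did not differ detectably between the iILC2 genotypes. Rxra had 1.91, 0.83, 0.98 and 2.07 TPM in KO iILC2, against 2.1, 1.44, 1.73 and 1.19 TPM in CTRL iILC2 (exact permutation p = 0.571). Rxrb had 9.15, 10.3, 7.56 and 9.92 TPM in KO iILC2, against 10.6, 8.32, 8.21 and 9.10 TPM in CTRL iILC2 (exact permutation p = 0.857). The libraries of both genotypes were interleaved for both genes, and by this share of transcripts Rxrb was the most abundant RXR gene in iILC2. The 95% interval of the KO minus CTRL difference ran from -0.55 to 0.30 for Rxra and from -0.35 to 0.39 for Rxrb on the log2(TPM + 1) scale.

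**Figure D1:**
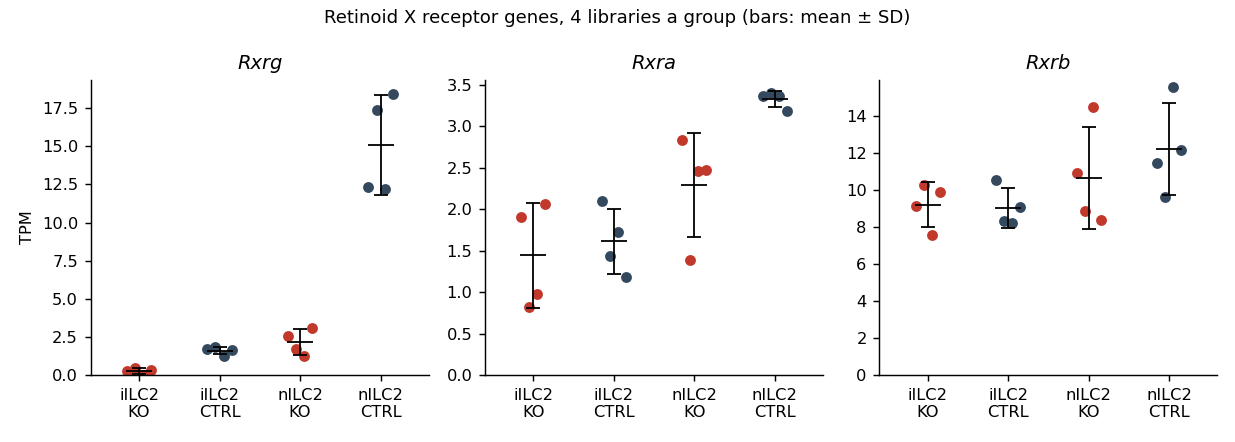
TPM of Rxrg, Rxra and Rxrb (vertical axes, each from 0) in KO and CTRL libraries of iILC2 and nILC2; points are libraries and bars the mean ± SD of 4. Rxrg averaged 0.280 TPM in KO iILC2 and 1.62 TPM in CTRL iILC2, while the Rxra and Rxrb points of the iILC2 genotypes overlap.

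Rxrg lies on chromosome 1, at chr1:167598362-167639623 in GRCm38.p6, and RefSeq gives it 2 start sites 19.9 kb apart. The 300-base windows around both starts are printed below to show where transcription of the targeted gene is annotated to begin. The windows of Kmo and Tnfrsf13b follow, because these had the smallest p-values among genes with a lower estimate in KO at over 10 TPM. The hexamer AGGTCA, the half-site that RXR and its partners bind, is in capitals where it occurs. All sequences are from RefSeq on the forward strand, 5′ to 3′.
Rxrg upstream start, chr1:167598112-167598411: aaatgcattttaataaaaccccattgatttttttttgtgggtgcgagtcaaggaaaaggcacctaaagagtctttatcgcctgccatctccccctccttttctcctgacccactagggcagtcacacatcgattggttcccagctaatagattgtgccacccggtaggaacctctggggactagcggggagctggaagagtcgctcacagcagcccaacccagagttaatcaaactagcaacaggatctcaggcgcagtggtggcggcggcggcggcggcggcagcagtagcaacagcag
Rxrg downstream start, chr1:167618015-167618314: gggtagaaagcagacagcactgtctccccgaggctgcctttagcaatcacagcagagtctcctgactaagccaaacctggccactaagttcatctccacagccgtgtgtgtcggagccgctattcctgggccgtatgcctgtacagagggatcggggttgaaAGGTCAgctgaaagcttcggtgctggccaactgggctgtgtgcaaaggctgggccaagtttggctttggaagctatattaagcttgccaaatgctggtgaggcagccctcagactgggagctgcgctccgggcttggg
Kmo, chr1:175631943-175632242: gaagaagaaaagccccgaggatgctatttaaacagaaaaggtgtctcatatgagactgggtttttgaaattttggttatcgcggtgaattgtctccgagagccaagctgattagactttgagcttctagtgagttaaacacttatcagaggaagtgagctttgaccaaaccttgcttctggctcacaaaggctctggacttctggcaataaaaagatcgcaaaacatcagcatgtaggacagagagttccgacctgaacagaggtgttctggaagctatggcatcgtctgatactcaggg
Tnfrsf13b, chr11:61126505-61126804: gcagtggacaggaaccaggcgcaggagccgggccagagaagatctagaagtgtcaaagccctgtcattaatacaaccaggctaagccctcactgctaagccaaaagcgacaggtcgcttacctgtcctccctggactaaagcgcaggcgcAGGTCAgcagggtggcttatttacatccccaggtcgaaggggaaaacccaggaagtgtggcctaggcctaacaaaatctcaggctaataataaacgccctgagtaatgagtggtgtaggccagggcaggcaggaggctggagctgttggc

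The downstream Rxrg window held 1 AGGTCA, whose first base is at -88 from the annotated start, and the Tnfrsf13b window held 1 at -100. The upstream Rxrg window and the Kmo window held none on either strand. AGGTCA occurs on either strand in 16.3% of the 32851 RefSeq promoter windows of that length. The paired forms AGGTCANAGGTCA and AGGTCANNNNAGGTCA, in which AGGTCA repeats after 1 or 4 bases, occur in 0.0396% and 0.0152% of the windows and in none of the 4 printed. These matches describe the letters of the windows and nothing about binding.

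No gene passed the test for a KO effect in iILC2. Of 10069 genes tested with limma on log2(TPM + 1), 0 (0%) had a Benjamini-Hochberg adjusted p under 0.05. The smallest adjusted p, 0.445, was shared by Kmo and Rxrg itself. At an unadjusted p under 0.05 there were 328 genes, 3.26% of those tested, 166 with a higher and 162 with a lower estimate in KO. Evenly spread p-values would give 503 such genes. The KO and CTRL libraries did not overlap for 296 genes, 2.94%, with KO above in 137 and KO below in 159. Exchangeable libraries, 4 against 4, would separate in this way for a share of 0.0286 of genes. A lack of overlap is thus not by itself a sign of a KO effect. The median difference over all tested genes was -0.01 and the middle 90% of genes lay between -0.32 and 0.29 on the log2(TPM + 1) scale. The count of genes called stayed at 0 under each of the 17 alternative settings tried, leaving out each library included. Fitting the 8 iILC2 libraries without nILC2 gave 534 genes at an unadjusted p under 0.05 and a smallest adjusted p of 0.227.

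**Figure D2:**
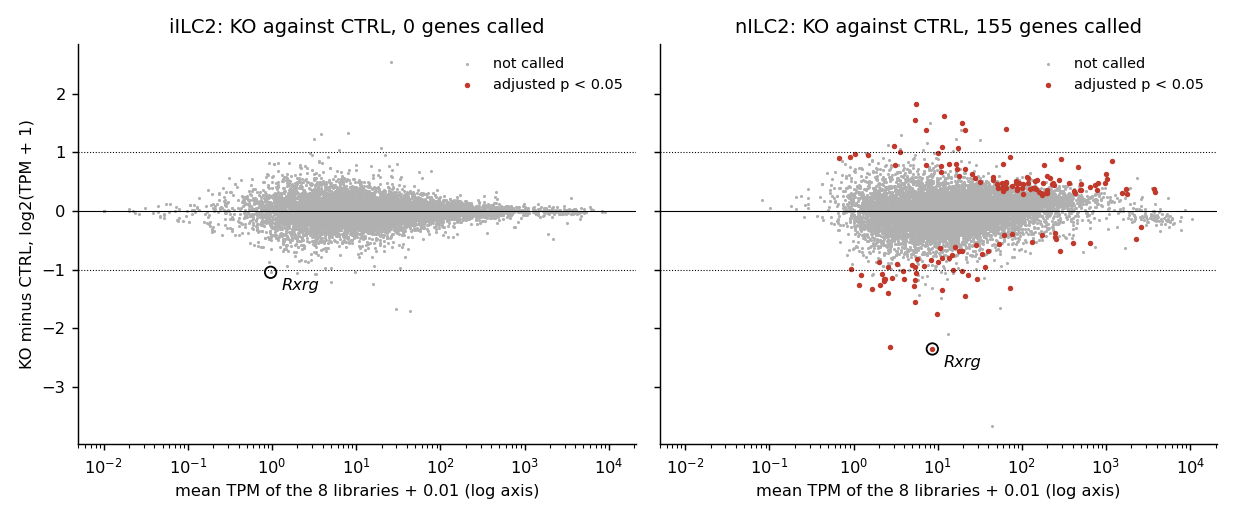
KO minus CTRL difference of log2(TPM + 1) (vertical axis) against mean TPM (log axis) for 10069 tested genes, in iILC2 on the left and nILC2 on the right. Red points have an adjusted p under 0.05 and a ring marks Rxrg. Dotted lines mark a difference of 1 in either direction, which is 2-fold only for abundant genes. The iILC2 panel holds 0 red points and the nILC2 panel 155.

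The 8 genes with the smallest p-values among those lower in KO were Kmo, Rxrg, Tnfrsf13b, Tmem59l, Arfgef1, Kantr, Arhgef1 and E4f1, and none passed the adjusted threshold. Kmo encodes kynurenine 3-monooxygenase, an enzyme of tryptophan breakdown. It had 14.2, 4.92, 10 and 8.11 TPM in KO iILC2, against 16.3, 21.7, 22.8 and 29.8 TPM in CTRL iILC2. The KO libraries all lay below the CTRL libraries, and the difference was -1.25 with a 95% interval of -1.75 to -0.74 (limma adjusted p = 0.445). Kmo was also lower in KO nILC2, where it passed the threshold (difference -1.02, limma adjusted p = 0.0443). Tnfrsf13b encodes TACI, a receptor for the B cell survival factors BAFF and APRIL. It had 20.5, 29.6, 33.4 and 29.0 TPM in KO iILC2, against 55.4, 44.8, 50.2 and 44.9 TPM in CTRL iILC2, again without overlap (difference -0.79, interval -1.15 to -0.43, limma adjusted p = 0.563). Arhgef1 encodes an activator of the small GTPase RhoA. It was the most abundant of the 8, with 123, 129, 165 and 134 TPM in KO iILC2 and 161, 186, 187 and 187 TPM in CTRL iILC2. The 2 genotypes overlapped for Arhgef1, since 1 KO library stood above the lowest CTRL library. Arfgef1, an exchange factor for ARF GTPases, had 7.19, 11.4, 6.77 and 5.94 TPM in KO iILC2, against 15.6, 12.1, 14.4 and 13.3 TPM in CTRL iILC2. The transcription factor gene E4f1 and the low genes Tmem59l and Kantr, a long noncoding RNA, had differences of -0.45, -0.84 and -1.07.

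Among genes higher in KO the 8 smallest p-values belonged to Mtss1, Klrb1b, Tex9, Ilvbl, Aldh1a3, Klhl5, Rgs18 and Adam8, with limma adjusted p-values of 0.563 or more. Klrb1b encodes an inhibitory C-type lectin-like receptor of the NKR-P1 family. It had 15.9, 10.1, 10.9 and 9.93 TPM in KO iILC2, against 4.33, 4.49, 2.38 and 5.13 TPM in CTRL iILC2. The groups did not overlap, and the difference was 1.33 with a 95% interval of 0.71 to 1.95. Mtss1, which encodes a protein that bends membranes and binds actin, had 4.92, 4.27, 2.30 and 4.73 TPM in KO iILC2, against 1.21, 1.46, 1.52 and 1.80 TPM in CTRL iILC2. Aldh1a3 encodes a retinaldehyde dehydrogenase, an enzyme that makes retinoic acid. Its values were 2.65, 4.5, 6.16 and 4.04 TPM in KO iILC2 and 1.91, 1.87, 1.58 and 1.36 TPM in CTRL iILC2, without overlap (difference 0.96, interval 0.43 to 1.49). Adam8, a membrane metalloprotease gene, had 20.4, 27.8, 22.6 and 20.9 TPM in KO iILC2, against 14.8, 11.9, 15.5 and 17.9 TPM in CTRL iILC2. Rgs18, a regulator of G protein signalling, was near 1 TPM or below in iILC2, with 1.41, 1.69, 1.31 and 1.28 TPM in KO and 0.50, 0.20, 0.61 and 0.20 TPM in CTRL. Every KO library of these genes lay above every CTRL library.

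**Figure D3:**
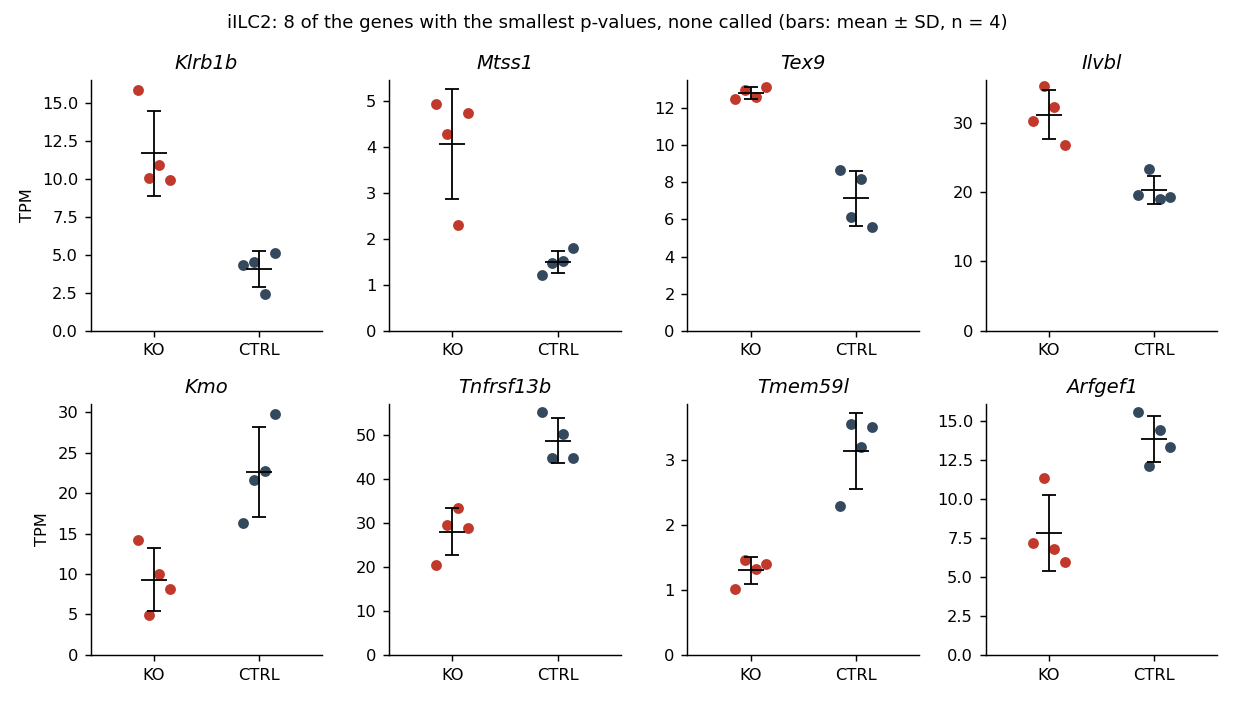
TPM in the KO and CTRL iILC2 libraries of 8 of the genes with the smallest p-values (vertical axes from 0); points are libraries and bars the mean ± SD of 4. The groups do not overlap in any panel, and no gene shown passed the adjusted threshold.

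Few differences in iILC2 reached 1 on the log2(TPM + 1) scale, which is 2-fold only for abundant genes. There were 15 such genes, 6 higher and 9 lower in KO, and for 9 of the 15 the KO and CTRL libraries overlapped. These genes are named here because of their values. Hmga1b had the largest positive estimate, 2.53, from 25.4, 75.0, 0.58 and 87.0 TPM in KO iILC2 and 1.95, 1.57, 1.32 and 13.1 TPM in CTRL iILC2. Its sequence is close to that of Hmga1, so reads can be split between the copies, and its nILC2 estimate had the opposite sign (-3.66). Nbdy had 12.8, 10.9, 7.17 and 9.03 TPM in KO iILC2, against 10.1, 88.7, 14.8 and 85.9 TPM in CTRL iILC2, so that its estimate of -1.67 rested on 2 CTRL libraries. The Y-linked genes Eif2s3y and Ddx3y were also among the 15. The 6 without overlap were Klrb1b, above in KO, and Kmo, Kantr, Afdn, Stab2 and Rxrg, below in KO.

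The limma fit bounded the KO effect in iILC2 tightly for abundant genes and loosely for scarce ones. Its spread was estimated from the iILC2 and nILC2 libraries together, so the interval widths are not those of iILC2 alone. For 9585 genes, 95.2% of those tested, the whole 95% interval of the difference lay within 2-fold, and for 6881 genes, 68.3%, within 1.5-fold. Of the tested genes, 9661 had at least 1 TPM in at least 4 iILC2 libraries. The rest passed the filter only with nILC2 libraries counted, and these shares include them. Of the 263 genes at 500 TPM or more, 98.1% had an interval within 1.5-fold, with a median half-width of 0.14 on the log2(TPM + 1) scale. Of the 3668 genes at 10 to 50 TPM, 97.0% lay within 2-fold and 80.0% within 1.5-fold. Of the 2109 genes at 1 to 5 TPM, the range that holds Rxra and many receptors, 88.3% lay within 2-fold and 35.1% within 1.5-fold. Of the 415 genes under 1 TPM, Rxrg among them, these shares were 92.0% and 36.1%. Of the 1551 genes at 5 to 10 TPM, Rxrb among them, they were 94.8% and 52.0%. At 10 TPM or more, 124 of 5994 genes had an interval reaching past 2-fold. Each interval is for its own gene and was not widened for the number of genes tested. A gene changing alone, with all others unchanged, would have needed a median difference of 1.08, or 2.12-fold, to pass the adjusted threshold. That size was 0.44, or 1.36-fold, at 500 TPM or more and 1.47, or 2.76-fold, at 1 to 5 TPM. Here and below, folds given for intervals and for this size are folds of TPM + 1. For scarce genes the matching fold in TPM is larger.

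**Figure D4:**
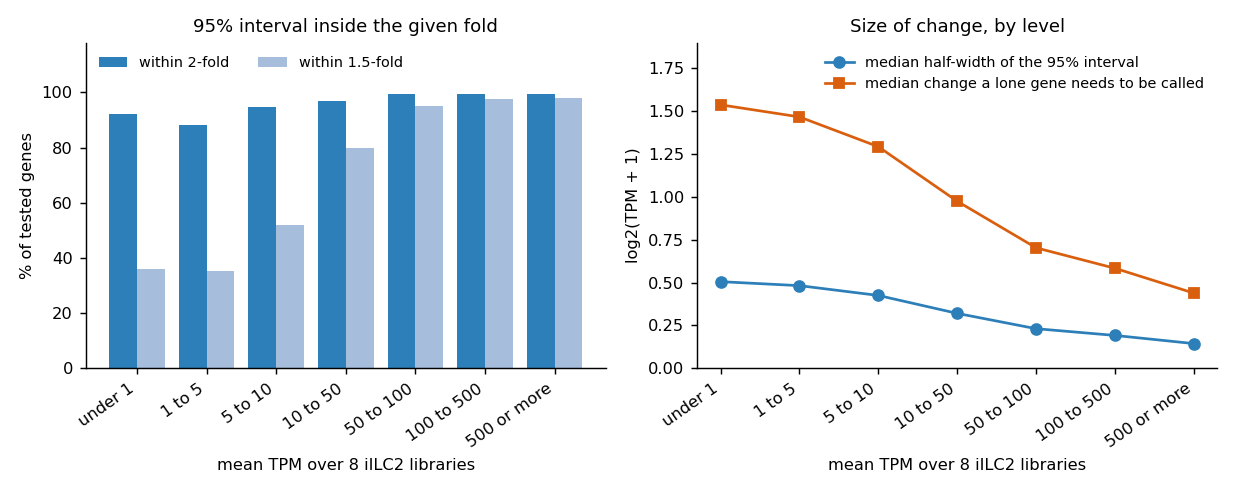
Left, share of tested genes whose 95% interval of the iILC2 KO effect lay within 2-fold (dark bars) or 1.5-fold (light bars), by mean TPM over the 8 iILC2 libraries. These are folds of TPM + 1. Right, median half-width of the interval (circles) and median change a lone gene would need to be called (squares), both in log2(TPM + 1); both shrink with level, from 0.48 at 1 to 5 TPM to 0.14 at 500 TPM or more for the half-width.

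These bounds are on log2(TPM + 1), a scale that compresses changes of scarce genes. Rxrg shows the size of this: its TPM was 5.79-fold higher in CTRL than in KO iILC2, yet the difference was -1.04, close to 2-fold. With a pseudocount of 0.1 TPM in place of 1 TPM, the Rxrg difference was -2.43 and 8491 genes, 84.3%, had an interval within 2-fold. Of the tested genes, 160 were under 1 TPM in all 8 iILC2 libraries and 5 were listed at 0 in all of them, so for these the narrow intervals say little about a fold.

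A mixed set of receptor, cytokine, ILC2 identity, lipid and egress genes, Rxra and Rxrb among them, was set out whatever the result. Of 19 such genes 17 were tested, Il9 and Il10 being absent from the table; 0 passed the threshold, 15 had an interval within 2-fold and 10 within 1.5-fold. Il4 was the most abundant of the type 2 cytokine genes here, with 46.6, 53.8, 60.4 and 54.2 TPM in KO iILC2 and 56.8, 47.3, 54.7 and 55.5 TPM in CTRL iILC2. Its difference was 0.00 with an interval of -0.25 to 0.25. Il5, which drives eosinophil output, had 2.50, 2.71, 4.87 and 3.66 TPM in KO iILC2, against 1.94, 2.34, 3.82 and 2.81 TPM in CTRL iILC2 (difference 0.24, interval -0.18 to 0.67). Il13, which acts on goblet cells and smooth muscle, had 1.67, 3.97, 4.95 and 5.23 TPM in KO iILC2, against 1.85, 3.31, 7.19 and 5.61 TPM in CTRL iILC2 (difference -0.11, interval -0.73 to 0.51). The groups overlapped for all 3 cytokines. Areg, the EGF family member amphiregulin, was at or below 1.43 TPM in every iILC2 library.

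Il17rb, Gata3 and Klrg1 differed little between the genotypes, with intervals within 1.5-fold. Il17rb, a subunit of the IL-25 receptor, had 125, 119.6, 106 and 104 TPM in KO iILC2, against 106, 120.5, 124 and 127 TPM in CTRL iILC2 (difference -0.07, interval -0.28 to 0.14). Gata3, the transcription factor that ILC2s depend on, had 166, 162, 166 and 183 TPM in KO iILC2, against 189, 154, 158 and 167 TPM in CTRL iILC2 (difference 0.02, interval -0.16 to 0.20). Klrg1, whose protein is an inhibitory receptor and ILC2 maturity marker, had 589, 532, 592 and 643 TPM in KO iILC2, against 552, 568, 585 and 626 TPM in CTRL iILC2 (difference 0.01, interval -0.14 to 0.17). All 3 sets of libraries were interleaved. Il1rl1 was low in every iILC2 library, at 3.19, 4.11, 2.22 and 4.97 TPM in KO and 6.51, 2.23, 1.87 and 3.35 TPM in CTRL. In nILC2 it ran from 23.4 to 60.8 TPM in KO and from 59.9 to 82.7 TPM in CTRL, so iILC2 carried the low Il1rl1 known for inflammatory ILC2s. Klrg1 was no higher in iILC2, with 566 to 634 TPM in KO nILC2 and 623 to 771 TPM in CTRL nILC2. Rora, another transcription factor needed for ILC2 development, and Nmur1, the neuromedin U receptor gene, had differences of 0.09 (interval -0.19 to 0.37) and -0.16 (interval -0.39 to 0.08). Not all members of these lists were so close. Of 24 identity genes tested 11 had an interval within 1.5-fold and 4 had an unadjusted p under 0.05, namely Rxrg, Arg1, Bcl11b and Ahr. Bcl11b, a transcription factor that maintains ILC2 identity, had 3.13, 4.13, 6.77 and 3.66 TPM in KO iILC2, against 4.02, 9.65, 10.3 and 9.03 TPM in CTRL iILC2, with overlap (difference -0.75, interval -1.36 to -0.14). Ahr, the aryl hydrocarbon receptor gene, had 4.38, 3.79, 5.5 and 4.28 TPM in KO iILC2, against 3.32, 2.63, 2.41 and 3.28 TPM in CTRL iILC2, without overlap (difference 0.49, interval 0.10 to 0.87). Both had a limma adjusted p of 1.00.

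Pparg and Arg1 had an unadjusted p under 0.05 in iILC2, both with a higher estimate in KO, and neither passed the adjusted threshold. Pparg, a nuclear receptor that pairs with RXR and acts in lipid uptake, had 9.18, 11.1, 6.86 and 7.40 TPM in KO iILC2, against 5.90, 6.55, 5.03 and 4.40 TPM in CTRL iILC2. All KO libraries lay above all CTRL libraries, and the difference was 0.57 with an interval of 0.13 to 1.00. Arg1, the arginine-degrading enzyme gene typical of ILC2s, had 45.6, 37.2, 18.8 and 30.4 TPM in KO iILC2, against 26.98, 23.3, 14.4 and 14.4 TPM in CTRL iILC2. The groups overlapped, and the interval of 0.03 to 1.36 reached past 2-fold. Dgat2, an enzyme of triglyceride storage, had 5.09, 6.10, 2.74 and 3.42 TPM in KO iILC2, against 5.45, 1.16, 5.91 and 5.63 TPM in CTRL iILC2. In nILC2 the same gene ran from 351 to 536 TPM in KO and from 588 to 759 TPM in CTRL, so iILC2 listed little of it in either genotype. The cholesterol exporter gene Abcg1, an LXR target, differed by -0.17 (interval -0.44 to 0.10). S1pr1, whose product lets lymphocytes leave tissue, had 132, 122, 145 and 122 TPM in KO iILC2, against 136, 134, 141 and 136 TPM in CTRL iILC2 (difference -0.08, interval -0.49 to 0.34). The SD of S1pr1 was 10.9 TPM in KO iILC2 and 2.94 TPM in CTRL iILC2, and its interval also carries the spread between nILC2 libraries.

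**Figure D5:**
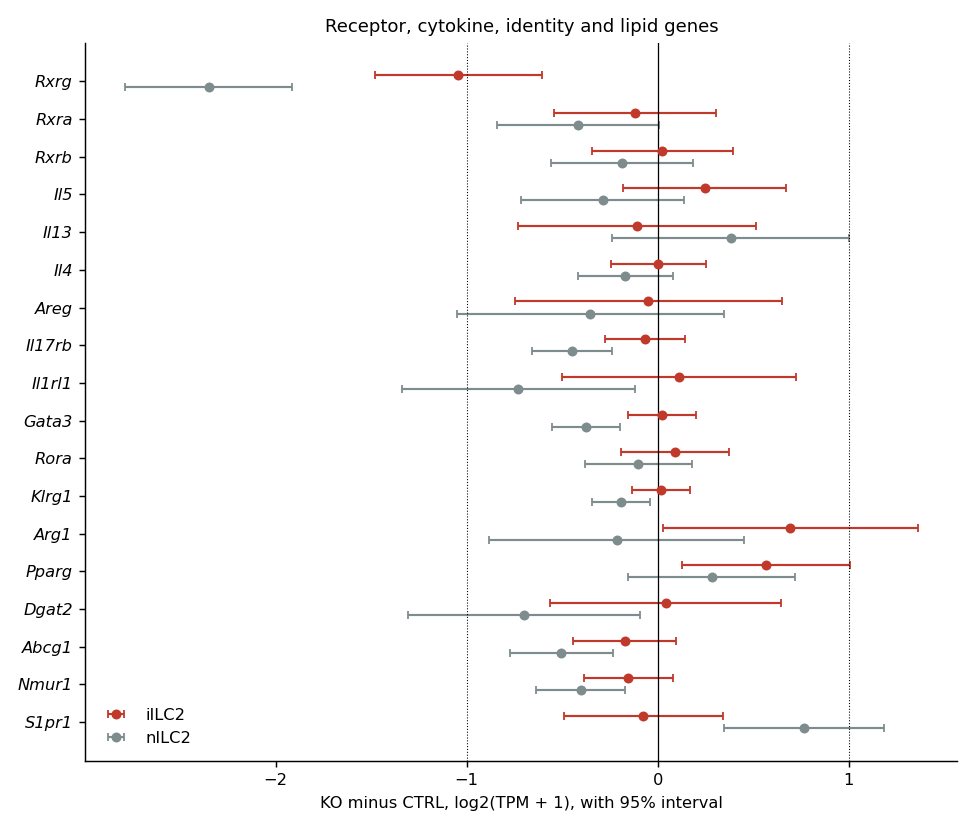
KO minus CTRL difference of log2(TPM + 1) with its 95% interval (horizontal axis) for 18 receptor, cytokine, identity and lipid genes, in iILC2 (red) and nILC2 (grey). Dotted lines mark a difference of 1 in either direction, which is 2-fold only for abundant genes. In iILC2 the intervals of Rxrg, Arg1 and Pparg leave 0 out, and of these Rxrg alone lies below it.

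Wider gene lists gave 0 called genes in iILC2. Over 23 lists there were 432 genes, of which 370 were listed and 368 tested. At an unadjusted p under 0.05 there were 25, 6.79% of those tested, 14 higher and 11 lower in KO, against 3.26% of all genes. The 25 include Rxrg, the targeted gene, and the lists were chosen with earlier results of these data known. The gap between these shares was therefore not tested and is no evidence of enrichment. The share of the list members with an interval within 2-fold was 91.8%, and their median difference was 0.00. Among RXR and its partner receptors, 15 genes were tested, with a median of 0.03, and 3 had an unadjusted p under 0.05: Rxrg, Pparg and Nr4a1. Among nuclear receptor coregulators, Ncoa1, a coactivator gene, averaged 1.56 ± 0.357 TPM in KO iILC2 and 3.69 ± 0.613 TPM in CTRL iILC2 (SD, n = 4 each), without overlap. The retinoid list, with 9 genes tested, held Aldh1a3 and also Ccr9, the retinoic acid-induced receptor that guides lymphocytes to the small intestine. Ccr9 had 720.4, 705, 600.1 and 743 TPM in KO iILC2, against 945, 866, 789 and 761 TPM in CTRL iILC2. Those groups did not overlap, and the difference was -0.28 with an interval of -0.47 to -0.09 (limma adjusted p = 1.00). LXR targets, cholesterol synthesis and fatty acid synthesis held 12, 25 and 11 tested genes with medians of -0.05, 0.06 and 0.01, and 1, 0 and 0 had an unadjusted p under 0.05.

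Lists tied to cell activity were bounded most closely. All 23 oxidative phosphorylation genes had an interval within 1.5-fold, and their median was 0.01. All 21 DNA replication genes did too, with 17 estimates below 0 and a median of -0.06. Of 22 mitosis genes 21 did, with 18 estimates below 0 and a median of -0.10. The mitosis genes Kif11, a spindle motor, and Aurka, a spindle kinase, had an unadjusted p under 0.05. Kif11 averaged 27.4 ± 3.25 TPM in KO iILC2 and 34.4 ± 2.36 TPM in CTRL iILC2, without overlap, and Aurka 54.3 ± 5.93 TPM in KO iILC2 and 65.6 ± 4.34 TPM in CTRL iILC2, with overlap (SD, n = 4 each). The medians of these 3 lists in nILC2 were 0.19, 0.36 and 0.32. Mki67, a marker of cycling cells, averaged 36.4 ± 1.80 TPM in KO iILC2 and 37.0 ± 2.66 TPM in CTRL iILC2 (SD, n = 4 each). Birc5, an inhibitor of apoptosis made in mitosis, had 533, 566, 484 and 473 TPM in KO iILC2, against 527, 548, 513 and 486 TPM in CTRL iILC2. In contrast, of the 12 tested cytokine genes, most of them scarce, all had an interval within 2-fold but 3 within 1.5-fold. Of these 12 genes, 4 were under 1 TPM in all 8 iILC2 libraries, 1 of them at 0 throughout. For those the log2(TPM + 1) scale makes the interval narrow, and it does not bound a fold. Cytokine and alarmin receptors held 21 tested genes with a median of 0.10, of which 12 had an interval within 1.5-fold and 4 an unadjusted p under 0.05 (Il10ra, Ifngr1, Tnfrsf25 and Il2ra). The interleukin-10 receptor gene Il10ra averaged 12.7 ± 0.575 TPM in KO iILC2 and 18.2 ± 2.74 TPM in CTRL iILC2 (SD, n = 4 each), without overlap. In the interferon list Rtp4 had the largest estimate, 1.03, from 11.3, 10.8, 10.6 and 2.65 TPM in KO iILC2 and 3.12, 2.7, 6.05 and 2.28 TPM in CTRL iILC2.

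Receptor, signalling and stress lists also held 0 called genes. Of 20 NF-kB genes, Nfkb1, which encodes the p105 and p50 subunits, had 549.7, 505, 405 and 456 TPM in KO iILC2, against 440.5, 423, 373 and 388 TPM in CTRL iILC2. The groups overlapped, and the difference was 0.23 with an interval of 0.03 to 0.43. Nfkb1 had the smallest p of this list, and 1 other NF-kB gene, lower in KO, also had an unadjusted p under 0.05. Among 6 granule genes tested, Gzma, the serine protease granzyme A, was abundant and variable, with 1595, 1320.1, 1477 and 2170.0 TPM in KO iILC2 and 1558, 2405, 2057 and 2602 TPM in CTRL iILC2 (difference -0.39, interval -1.24 to 0.46). Srgn, the granule proteoglycan serglycin, was steadier, with a difference of -0.04 and an interval of -0.19 to 0.10. The 18 inhibitory and costimulatory receptors had a median of 0.11, and Ctla4, a checkpoint receptor gene, had 100.6, 84.7, 88.3 and 58.6 TPM in KO iILC2, against 103, 93.3, 80.8 and 64.9 TPM in CTRL iILC2. JAK, STAT and feedback genes (22 tested) and neuropeptide and lipid mediator receptors (13 tested) held 0 genes at an unadjusted p under 0.05. Of 16 unfolded protein response genes 13 had an estimate below 0, with a median of -0.05 and 15 intervals within 1.5-fold. The 17 glycolysis genes had a median of 0.04, and 2, Slc2a1 among them, had an unadjusted p under 0.05, both higher in KO. Gapdh, the most abundant, differed by 0.05 (interval -0.16 to 0.26). Ctsw among the granule genes and Cd160 among the inhibitory and costimulatory receptors also had an unadjusted p under 0.05, each higher in KO. The 17 genes of retention and egress had a median of -0.04, with Ccr9 having the smallest p among them.

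The same test called 155 genes, 1.54% of those tested, in nILC2, where CTRL Rxrg was higher, with 95 higher and 60 lower in KO. That count was unsteady: leaving out 1 nILC2 library moved it to between 23, without CTRL replicate 4, and 1006, without KO replicate 1, and each of the 8 moved it by over 1.5 times. Among the 155 genes, 0 were called in iILC2 and 10 (6.45%) had an unadjusted p under 0.05 there, against 3.26% of all tested genes. Their median difference in iILC2 was 0.00. The iILC2 estimate had the sign of the nILC2 estimate for 91 of the 155, and for 90 of 154 without Rxrg, against 5187 (51.5%) of all 10069 genes. Same-numbered iILC2 and nILC2 libraries deviated together, as given below, so the estimates of the 2 populations are not independent. For 148 of the 155 (95.5%) the iILC2 interval lay within 2-fold, against 95.2% of all tested genes. For 115 (74.2%) it lay within 1.5-fold, against 68.3%. For 150 it did not include the nILC2 estimate, and for 79 it did not include 0.5 times that estimate. The nILC2 estimates of genes chosen as called are on the large side, which widens such gaps. Some of the 155, Ccl1 and Nrp1 among them, were under 1 TPM in all 8 iILC2 libraries and were tested because of their nILC2 values. For these a small iILC2 difference on the log2(TPM + 1) scale was fixed in advance, and the counts above include them.

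Tigit and Nkg7 show the pattern among genes higher in KO nILC2. Tigit, an inhibitory receptor gene, had 87.0, 68.2, 92.2 and 83.4 TPM in KO iILC2, against 86.8, 62.7, 86.8 and 74.0 TPM in CTRL iILC2 (difference 0.09, interval -0.16 to 0.34). In nILC2 it had 23.2, 23.0, 26.4 and 22.9 TPM in KO, against 11.3, 10.02, 11.8 and 10.2 TPM in CTRL (difference 1.07, limma adjusted p = 0.000136). The genotypes overlapped in iILC2 and did not in nILC2. Nkg7, which encodes a membrane protein of cytotoxic granules, had 479, 529, 480.3 and 527 TPM in KO iILC2, against 453, 484, 439 and 381 TPM in CTRL iILC2 (difference 0.20, interval -0.20 to 0.60). In nILC2 it had 63.8, 109, 96.5 and 107 TPM in KO, against 31.9, 57.0, 24.7 and 30.3 TPM in CTRL (difference 1.40, limma adjusted p = 0.00107). Both genes were more abundant in iILC2 of either genotype than in KO nILC2. Fcer1g, the signalling chain shared by Fc receptors, had an iILC2 estimate in the same direction, with 66.8, 83.2, 72.1 and 51.6 TPM in KO iILC2 and 40.1, 53.6, 53.3 and 27.3 TPM in CTRL iILC2 (difference 0.67, interval 0.13 to 1.2, limma adjusted p = 1.00).

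Among genes lower in KO nILC2, several were hardly listed in iILC2. Ccl1, a chemokine gene, was listed at 0 in all 8 iILC2 libraries, while in nILC2 it had 9.13, 3.43, 2.42 and 2.05 TPM in KO and 10.4, 15.2, 25.4 and 11.4 TPM in CTRL. Nrp1, which encodes neuropilin 1, was at 0.79 TPM or less in every iILC2 library, and in nILC2 it had 23.9, 13.4, 9.49 and 11.5 TPM in KO and 26.6, 34.1, 34.8 and 27.5 TPM in CTRL. For such genes no fold can be given in iILC2. Il17rb and Gata3 were abundant in both populations and were lower in KO nILC2, with differences of -0.45 and -0.37 (limma adjusted p = 0.0345 and 0.0375). The iILC2 intervals of both genes, given above, did not reach those values.

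The difference between the KO effects of the 2 populations was tested in the same fit and called 0 of 10069 genes (0%), with 1059 at an unadjusted p under 0.05. The smallest adjusted p was 0.0605, shared by Tigit and 2 other genes. For Tigit the iILC2 effect minus the nILC2 effect was -0.98, with a 95% interval of -1.33 to -0.62. For Il17rb and Gata3 the difference of effects was 0.38 and 0.40 (limma adjusted p = 0.367 and 0.321). In this fit an effect called in nILC2 and not in iILC2 is therefore not shown to differ between them. Libraries of iILC2 and nILC2 with the same genotype and number deviated together, however, with correlations across genes of 0.188, 0.102, 0.231 and 0.145 in KO and 0.253, 0.153, 0.133 and 0.0490 in CTRL, each highest for its own number. A fit with each such pair as a block, added after seeing the data, called 8 genes for the difference, among them Tigit, Nkg7 and Clnk with a more negative effect in iILC2 and Id2 and Tex9 with a more positive one (limma adjusted p = 0.0300 for Tigit and Id2 and 0.0427 for the others). Without the block the count also depended on 1 library, since 132 genes were called without nILC2 KO replicate 1, 5 without nILC2 CTRL replicate 2 and 2 without iILC2 CTRL replicate 2.

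The iILC2 libraries resembled each other closely. They listed 9530 to 9605 genes at 1 TPM or more, and the log2 values of library pairs had a median correlation across genes of 0.985 between genotypes and 0.986 within. The 4 Y-linked genes together were at 5 TPM or more in 2 of 4 KO and 3 of 4 CTRL iILC2 libraries and below 1 TPM in the other 3, which goes against the label of pooled sexes in every library. The nILC2 library of the same genotype and number had the same state in each case. The estimates of Rxrg, Kmo and Klrb1b were -1.12, -1.22 and 1.25 among libraries with these genes and -1.05, -1.26 and 1.32 among those without, of which CTRL has 1. Of the 16 genes with the smallest p-values, 7 differed in size by over 1.5 times between these strata. Arfgef1 (-1.07 with and -0.39 without), Kantr (-1.40 and -0.86), Arhgef1 (-0.26 and -0.56) and E4f1 (-0.57 and -0.19) had lower estimates in KO. Aldh1a3 (1.2 and 0.64), Rgs18 (0.69 and 1.09) and Adam8 (0.42 and 0.95) had higher ones. All 16 kept their sign. Where KO and CTRL libraries do not overlap, as for all of the 16 but Arhgef1, any split of the libraries gives the same sign. Of 91 marker genes of other cell types 17 were listed and 0 called, and Cd3e, Cd3d, Trac, Ncr1 and Cd79a were not in the table. Listed T cell markers, 5 of 14, summed to 37.0 to 63.8 TPM in KO iILC2 and 27.2 to 49.2 TPM in CTRL iILC2. Other listed markers were abundant. Cd79b, the 1 listed B and plasma cell marker of 10, had 232 to 254 TPM in KO iILC2 and 238 to 282 TPM in CTRL iILC2. The NK and ILC1 markers, 3 of 10 listed and Gzma among them, summed to 1332 to 2189 TPM in KO iILC2. In CTRL iILC2 they summed to 1572 to 2619 TPM. The red blood cell gene Hba-a1 averaged 38.6 ± 6.79 TPM in KO iILC2 and 22.1 ± 5.62 TPM in CTRL iILC2, without overlap (SD, n = 4 each). Epcam, an epithelial gene that nILC2 also listed, had 5.03, 3.88, 2.1 and 3.14 TPM in KO iILC2, against 6.58, 5.29, 4.01 and 5.32 TPM in CTRL iILC2. Their part in the estimates was not tested.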

How the data were processed

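Per the labels, RNA from small-intestinal ILC2s was profiled by Smart-seq2 in 16 libraries of 4 groups. The authors deposited TPM values per gene for 10176 genes. How these genes were chosen is not given in the sources used here. The submitters' processing notes name the trimmer cutadapt 2.10, the aligner STAR 2.7.5c, the quantifier RSEM 1.3.3 and the build mm10, without saying how each was run. TPM keep no read total, so no counting error or detection floor can be given, and a change in a few abundant genes shifts all others.

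From the deposited TPM, the 10069 genes reaching 1 TPM in 4 or more of 16 libraries were fitted as log2(TPM + 1) with limma 3.58.1 (lmFit, eBayes with trend; R 4.3.3), 1 mean per group. All 16 libraries shared 1 estimate of spread. A gene was called at a Benjamini-Hochberg adjusted p under 0.05 over all tested genes; differences, standard errors and 95% intervals come from this fit. Rxrg, Rxra and Rxrb were also tested by two-sided exact permutation of 4 against 4 libraries. The fit was tested on simulated data. Alternatives were a pseudocount of 0.1 TPM, no filter, a 5 TPM filter, 2 rescalings, the compared groups alone, array weights, a replicate block, a Y-linked term and leaving out each library.

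Named genes were Rxrg, 19 key genes, up to 8 genes with the smallest adjusted p in each direction where none was called, up to 8 highest and lowest changes called in nILC2 at 10 TPM or more without overlap, and examples of each list. Members, lists and rules were chosen with earlier results of these data known. Of 10176 symbols, 10139 matched RefSeq of GRCm38.p6 (mm10), the source of coordinates and promoter windows. Culture, ATAC-seq and CUT&Tag samples were not used here.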

Additional observations from a re-analysis of the deposited data

Results flagged for a closer look

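Of 92 sets of 4 libraries examined, 6 (6.52%) held a library whose gap to its nearest neighbour was, as a share of the group's range, above Dixon's 95% critical value, and chance flags about 1 in 20 groups. In KO iILC2, replicate 1 stood apart for Klrb1b, at 15.9 TPM against 9.93 to 10.9 TPM in the other 3 libraries, and for E4f1, at 25.0 TPM against 20.6 to 21.1 TPM. In CTRL iILC2, replicate 2 stood apart for Dgat2, at 1.16 TPM against 5.45 to 5.91 TPM in the others, and for Ilvbl, at 23.4 TPM against 19.1 to 19.5 TPM. CTRL iILC2 replicate 1 had 161 TPM of Arhgef1 against 186 to 187 TPM in the others. CTRL iILC2 replicate 3 had 0.79 TPM of Nrp1 against 0.16 to 0.25 TPM in the others.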

How the results depend on the processing

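The KO comparison in iILC2 called 0 genes under all 17 alternatives, with a smallest adjusted p between 0.0642, without KO iILC2 replicate 1, and 1, and none of 796 alternative values of 47 named genes passed the threshold. Genes with an interval within 2-fold, 9585 in the main fit, numbered 9718 with array weights and 9331 to 9425 (92.7% to 93.6%) leaving out 1 iILC2 library. Under the 5 TPM filter they numbered 8012, a count not comparable with the others because fewer genes were tested. The Rxrg difference was -1.12 to -0.93 leaving out 1 iILC2 library. The nILC2 count of 155 was 82 with a pseudocount of 0.1 TPM, 272 rescaled by the median of ratios, 5 fitting nILC2 alone, 275 with array weights, 62 with the Y-linked term and 23 to 1006 leaving out 1 library. The difference of effects, 0 called, gave 1 with quantile normalization, 21 with array weights, 5 with the Y-linked term and 0 to 132 leaving out 1 library. With the replicate block the counts were 0 in iILC2, 317 in nILC2 and 8 for the difference, and 8 with a block of genotype and number, chosen after seeing the data. Same-numbered KO and CTRL iILC2 libraries deviated together with correlations of 0.136, 0.0554, 0.179 and 0.0162 across genes. Of these, 3 of 4 correlated best with their own number. Numbers were to be taken as pairs only if all 4 correlations were above 0.1, so KO and CTRL numbers were not. The numbers of CTRL iILC2 and CTRL nILC2 fell short of that rule too, with 0.0490 for number 4. The causes were not tested. Unknown depth limits statements on genes near 1 TPM.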

Other observations

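Genes near Rxrg on chromosome 1 were counted after the position of Kmo had been seen. Of 99 tested genes within 10 Mb of Rxrg, 3 (3.03%) had an unadjusted p under 0.05 in iILC2, against 3.23% of 9457 genes on other chromosomes. These were Kmo, 8.03 Mb away and lower in KO, and Fcer1g, 3.61 Mb away, and Atp1b1, a sodium pump subunit gene, both higher in KO. Atp1b1 averaged 4.59 TPM in KO iILC2 and 2.61 TPM in CTRL iILC2, without overlap. In nILC2, 6 of the 99 genes were called (Mrps14, Dnm3, Fcer1g, Dedd, Tagln2 and Kmo), against 144 of 9457 on other chromosomes.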
